A study of Mus musculus with 3 samples.

Results

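The 10 genes described here are Trp53, which encodes the transcription factor p53, and 9 genes that p53 switches on or that hold it in check: Mdm2, Mdm4, Ccng1, Bax, Bbc3, Pmaip1, Sesn1, Sesn2 and Zmat3. They were chosen by name, out of 35562 genes listed in RNA-seq libraries of 3 mouse myoblast lines. All 10 were detected in every line. RNA of Ccng1 was the most abundant, at 713 ± 92.9 TPM (SD, n = 3 lines), and RNA of Sesn1 the least, at 6.45 ± 1.49 TPM. TPM (transcripts per 1000000) is a read count divided by transcript length and scaled to a fixed library total, which allows levels to be compared between genes.

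The lines, numbered 66, 67 and 72, form 1 condition with 1 library each. They were grown from Pax7-nGFP-positive satellite cells (resident muscle stem cells) sorted from muscles of intraspecies mouse chimeras. The donor iPSCs had the genotype Dmdmdx; Pax7-nGFP, were reprogrammed from embryonic fibroblasts, and had had their mdx mutation in the dystrophin gene edited with CRISPR/Cas9, so all 3 lines share the mdx background, the reporter and the edit. The study checked the edit in 1 iPSC clone and in myoblast lines from the chimeras. The host embryos carried Pax7Cre/ERT2 and Rosa26lsl-DTA, an allele pair that kills host satellite cells after tamoxifen. The labels give neither the tamoxifen treatment, nor the age of the chimera, nor whether the lines came from separate animals, so the spread between lines may be partly technical. Control Pax7-nGFP myoblasts and fibroblasts were not analysed here. With 3 lines of 1 condition, no exact two-sided p can fall under 0.25, and no test was run.

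In healthy cells p53 protein is made and destroyed at a high rate. Mdm2 is the ubiquitin ligase that marks p53 for destruction, and Mdm4 is a related protein that binds p53 and blocks its activity. When DNA is damaged, this hold is released and p53 activates genes that stop the cell cycle, protect the cell, or kill it through the mitochondria. Mdm2 is itself a p53 target, which closes a feedback loop. In muscle, p53 is known for its effects on satellite cell survival and on the exit of myoblasts from the cycle. The libraries measured RNA only, and the amount of p53 protein is set largely after its RNA is made.

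p53 binds DNA through pairs of a 10-base element, and single elements that match its consensus were looked for in promoter windows from 250 bases before to 50 bases after each start of transcription (RefSeq, GRCm38.p6). The consensus reads the same on both strands, so 1 search covered both. Of the 10 genes, 8 were in the RefSeq promoter table, with 12 windows, and 5 windows of 5 genes held a match. Among all genes listed there, 8.36% of 32851 windows and 9.55% of 27025 genes did. The pieces below show the 5 matches in capitals with 15 bases on each side, on the strand of the gene, so that the matched letters can be read beside the RNA levels of the same genes.
Trp53, chr11:69580269-69580308, plus strand, 75 bases before the start: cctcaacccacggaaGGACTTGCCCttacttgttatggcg
Mdm2, chr10:117710920-117710959, minus strand, 186 bases before the start: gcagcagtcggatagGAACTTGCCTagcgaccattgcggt
Ccng1, chr11:40755447-40755486, minus strand, 185 bases before the start: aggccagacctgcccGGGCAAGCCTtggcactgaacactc
Bax, chr7:45467075-45467114, minus strand, 201 bases before the start: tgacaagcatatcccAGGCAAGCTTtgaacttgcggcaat
Sesn1, downstream start, chr10:41887251-41887290, plus strand, 173 bases before the start: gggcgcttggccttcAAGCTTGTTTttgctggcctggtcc
The windows of Bbc3 (3 of them), Mdm4 (2), Sesn2 and the other RefSeq start of Sesn1 (chr10:41810324-41810623) held no match, which says only that these letters are not in those windows. The start of Sesn1-202 lies outside both Sesn1 windows and was not searched. The Mdm2 window (chr10:117710709-117711008) lies at its first exon, so the promoter in its first intron, described below, was not searched either. A match is a description of the letters and not a measured binding site. Zmat3 and Pmaip1 were not in the promoter table.

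Trp53 (chr11:69580359-69591873 on GRCm38, plus strand) had 211 TPM in line 66, 145 in line 67 and 159.6 in line 72. These values rest on 20308, 12949 and 14840 estimated counts, so counting error is small beside the gap between lines. Line 66 stood above the other lines, and the mean was 172 ± 34.5 TPM (SD, n = 3), higher than 96.5% of the 25510 detected genes.

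Of the feedback inhibitors, Mdm2 (chr10:117688875-117710758, minus strand) had 455, 326.5 and 401 TPM in lines 66, 67 and 72. Line 66 was again highest and line 67 lowest, as for Trp53. The mean was 394 ± 64.5 TPM. Mdm4 (chr1:132959484-133030561, minus strand) had 39.1, 43.5 and 48.2 TPM, with line 66 lowest and line 72 highest. There were 2.16, 2.26 and 2.51 Mdm2 transcripts per Trp53 transcript in lines 66, 67 and 72 (2.31 ± 0.18, SD, n = 3), and 0.0859, 0.133 and 0.120 Mdm4 transcripts per Mdm2 transcript. These ratios depended on which transcripts were counted. With protein-coding transcripts alone, an alternative chosen after seeing the data, Mdm2 fell below Trp53, at 0.441, 0.473 and 0.443 per Trp53 transcript, and Mdm4 was at 0.247, 0.389 and 0.369 per Mdm2 transcript. On both measures the ratio of Mdm2 to Trp53 varied less between lines than either gene did. Both genes lie on chromosomes that were shifted as a whole in line 66, by a median log2 ratio of 0.29 (chromosome 10) and 0.33 (chromosome 11). The part of this shift in the steadier ratio was not tested.

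Ccng1 (chr11:40748552-40755311, minus strand) encodes cyclin G1, a p53 target that recruits a phosphatase to Mdm2 and so takes part in the feedback on p53. It had 801, 615.5 and 721.5 TPM in lines 66, 67 and 72, and all of these reads were assigned to 1 coding transcript. The level exceeded that of 99.2% of detected genes and was 3.80, 4.25 and 4.52 times that of Trp53 in the same lines.

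The genes of mitochondrial cell death were at very different levels. Bax (chr7:45461697-45466898, minus strand) encodes the pore protein of the outer mitochondrial membrane and had 386, 403 and 409 TPM, so the 3 lines were nearly alike in TPM. On estimated counts, 14510, 14044 and 12759, line 72 was lowest instead of highest, and the short form Bax-202 gave that line 64.4 TPM from 473 counts. Only 88.9% of the 31-base words of Bax are in no other listed gene. Pmaip1, which encodes the BH3-only protein NOXA and lies on chromosome 18, had 108, 169.8 and 138 TPM in lines 66, 67 and 72. Line 67 was highest and line 66 lowest, the reverse of Trp53. Bbc3 (chr7:16308393-16318205, plus strand) encodes PUMA, another BH3-only protein that releases BAX from its inhibitors, and had 15.35, 15.7 and 13.4 TPM from 1244, 1137 and 1109 estimated counts. Pmaip1 was 7.04, 10.8 and 10.3 times as abundant as Bbc3 in lines 66, 67 and 72, and 13.1, 21.5 and 15.96 times with protein-coding transcripts alone.

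The last group protects stressed cells or binds RNA. Sesn1 and Sesn2 encode sestrins, stress proteins that restrain mTORC1 signalling, and Zmat3 encodes a zinc finger protein that binds RNA. Sesn1 (chr10:41809935-41908424, plus strand) had 8.14, 5.92 and 5.29 TPM in lines 66, 67 and 72, from 1017, 710.0 and 647 estimated counts. Exact Poisson 95% intervals, which cover counting error only, were 955 to 1082 counts in line 66, 659 to 764 in line 67 and 598 to 699 in line 72. They are not scaled to library size, and those of lines 67 and 72 overlapped. Sesn2 (chr4:132492032-132510501, minus strand) had 26.4, 27.4 and 31.3 TPM, with line 72 highest. Zmat3 (chr3:32334792-32366014, minus strand) had 49.8, 52.2 and 51.7 TPM and hardly varied. Sesn2 was above Sesn1 in every line, by 3.24, 4.62 and 5.92 times.

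**Figure D1:**
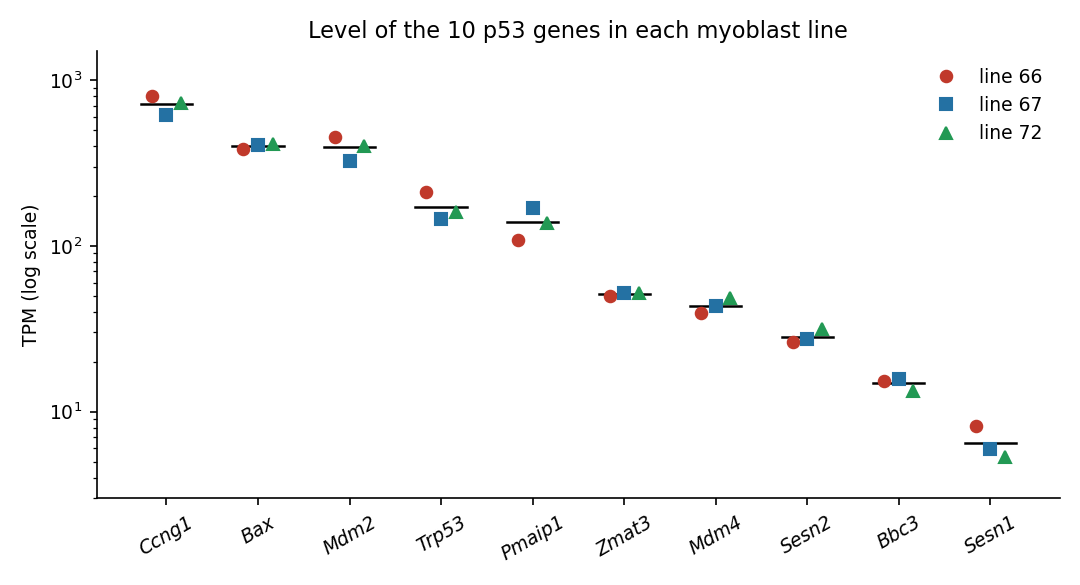
TPM (log scale) of the 10 genes in lines 66 (circles), 67 (squares) and 72 (triangles), ordered by mean level, with a bar at the mean of the 3 lines. Ccng1 sat at 615.5 TPM or more in every line and Sesn1 at 8.14 TPM or less.

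In order of mean level the genes ran Ccng1, Bax, Mdm2, Trp53, Pmaip1, Zmat3, Mdm4, Sesn2, Bbc3 and Sesn1. Bax and Mdm2 could not be ordered, because their ranges overlapped and Mdm2 was above Bax in line 66 only. Trp53 and Pmaip1 also overlapped, with Pmaip1 above Trp53 in line 67 only. With all transcripts counted, the other 7 pairs of neighbours did not overlap, although Zmat3 and Mdm4 came close, at 49.8 TPM for the lowest line of Zmat3 and 48.2 TPM for the highest line of Mdm4. Several places depended on which transcripts were counted. Those of Mdm2 annotated as protein coding had only 91.2, 67.2 and 69.5 TPM, which put Mdm2 below Trp53 and Pmaip1 in every line. Coding transcripts of Mdm4 had 22.5, 26.1 and 25.6 TPM, which put it below Sesn2 in every line. Those of Bbc3 had 8.23, 7.90 and 8.64 TPM, so that its range overlapped that of Sesn1. The median of the 10 genes on the log2(TPM + 1) scale was 6.22, 6.46 and 6.42 in lines 66, 67 and 72 (6.37 ± 0.13, SD), where the median of all detected genes was 0.89, 0.85 and 0.91. The 10 genes together took 0.210%, 0.180% and 0.198% of all transcripts.

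The next comparison was between lines, as the ratio of the highest to the lowest TPM, over the 8428 genes whose mean reached 10 TPM. Of the 10 genes, 9 passed this filter and Sesn1 did not. Pmaip1, at 1.57-fold, was the 1 gene of the 9 that exceeded 1.5-fold, a range that 9.79% of all 8428 genes exceeded. None of the 9 exceeded 2-fold, against 2.47% of all genes. Both shares are near the background, so the count singles out nothing about these genes. Without line 66 or without line 67 the count was 0, so the call of Pmaip1 rests on both of those libraries.

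Within the 10 genes the spread between lines differed widely. Trp53 spanned 1.455-fold and Mdm2 1.39-fold, more variable than 89.0% and 82.4% of the 8428 genes by coefficient of variation. Zmat3 spanned 1.05-fold and Bax 1.06-fold, and 6.63% and 9.82% of genes varied less. Ccng1 spanned 1.30-fold, Mdm4 1.235-fold, Sesn2 1.19-fold and Bbc3 1.18-fold, while Sesn1, left out by the filter, spanned 1.54-fold. The median range of the 9 genes was 1.235-fold beside 1.18-fold for all genes.

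The genes that were highest in line 66 were Trp53, Ccng1, Mdm2 and Sesn1, the 4 of the 10 that lie on chromosomes 10 and 11. By TPM, none of the 6 genes on other chromosomes was highest in that line. With counts scaled by edgeR's TMM or DESeq2's size factors, Bbc3 on chromosome 7 also had its highest log2 ratio there, 0.09 beside 0.05 in line 67. Of the 9 genes that passed the filter 3 were highest in line 66, beside 28.1% of all genes, and of genes on chromosomes 10 and 11 as many as 82% were. Both chromosomes were shifted as a whole in line 66: relative to the median of all genes, the median log2 ratio of line 66 to the other lines was 0.29 over 427 genes of chromosome 10 and 0.33 over 699 genes of chromosome 11.

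Set beside their own chromosome, the 4 genes differed. Ccng1 had a log2 ratio of 0.32 in line 66, at the middle of chromosome 11, where 47.1% of genes were lower. Mdm2, at 0.38, was above 70.7% of the genes of chromosome 10. Trp53, at 0.53, lay 0.19 above the median of chromosome 11 and above 85.1% of its genes, and Sesn1, at 0.60, lay 0.31 above that of chromosome 10 and above 92.5% of its genes. In line 66 Ccng1 thus moved by as much as its chromosome did. Mdm2 lay between the quartiles of chromosome 10, 0.15 and 0.40. Trp53 and Sesn1 lay above the upper quartile of their chromosomes, 0.46 and 0.40. In line 67 Mdm2, at -0.37, departed by -0.28 from the chromosome 10 median of -0.09, and 6.32% of genes were lower. In line 72 Mdm2 lay 0.16 above its chromosome and Ccng1 0.11 above its own. The spread of genes along a chromosome is no replicate error, and the part of the chromosome shift in the level of any 1 gene was not tested.

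Pmaip1 was the gene with the largest departure from its chromosome. Its log2 ratio was -0.45 in line 66, where the median of 216 genes of chromosome 18 was -0.06, and 0.48 in line 67, where that median was 0.01. In line 67 it exceeded 99.1% of the genes of chromosome 18. Bbc3 stood at -0.28 in line 72 beside a median of -0.06 on chromosome 7, but at -0.13 when counts were scaled with edgeR's TMM or DESeq2's size factors. Sesn2 in the same line was at 0.16 beside -0.05 on chromosome 4. Zmat3 stayed within 0.06 of the median of all genes in every line by TPM and within 0.09 by both count scalings. Bax did so by TPM, at -0.02, 0.04 and -0.01 in lines 66, 67 and 72, but both count scalings gave 0.05, 0.15 and -0.19.

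**Figure D2:**
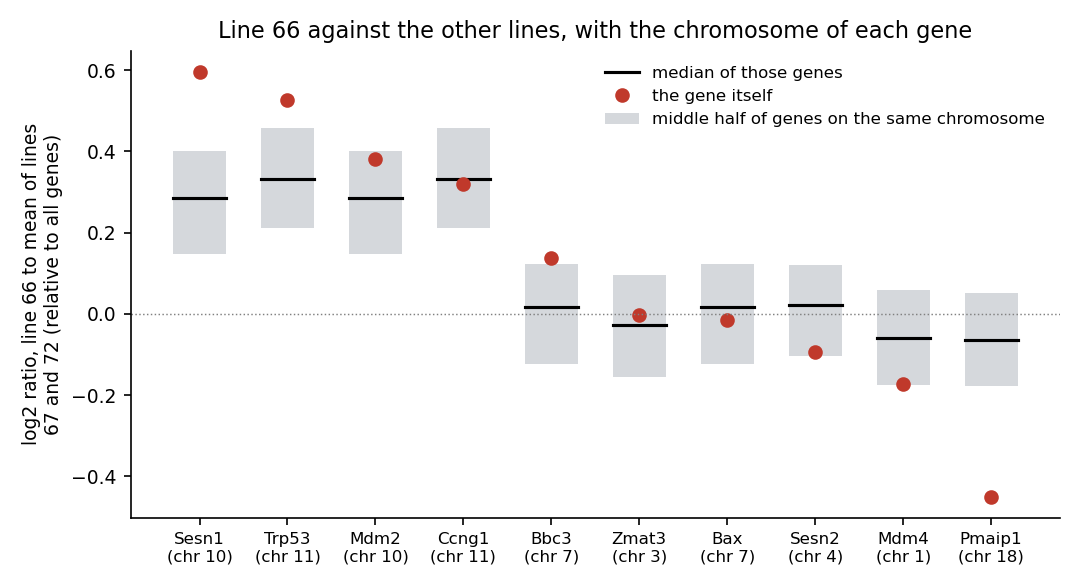
Log2 ratio of line 66 to the mean of lines 67 and 72, relative to the median of all genes, for each of the 10 genes (points), with the median (line) and the quartiles (grey bar) of the genes on the same chromosome. The 4 genes of chromosomes 10 and 11 lie between 0.32 and 0.60 and Pmaip1 at -0.45, while the other 5 lie between -0.17 and 0.14.

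The genes with the levels most like those of Trp53 and Mdm2 were found by the largest difference in log2(TPM + 1) over the 3 lines. For Trp53 they were Csnk1g2 (0.10), Taf15 (0.13) and Txndc17 (0.13), and for Mdm2 P4hb (0.09), Col18a1 (0.11) and Metap2 (0.13). All 6 lie on chromosomes 10 or 11, which held 1126 of the 8428 genes compared. They were picked by these same line values, and 82% of genes on those chromosomes were highest in line 66. Their place therefore adds no separate observation.

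The files give a value for each transcript, and 22 of 52 annotated transcripts of the 10 genes took at least 10% of the TPM of their gene in at least 1 line. Shares were also computed from estimated counts, since a short transcript takes a larger share of TPM than of reads. Stretches that separate forms of p53 and of its inhibitors are printed here in capitals with 15 bases of the neighbouring exons on each side (GENCODE M21, GRCm38, strand of the gene), or on the left side alone for Trp53, whose coding sequence ends there. They are the coding bases of an alternative stretch of Trp53, and the exons that are skipped in Mdm2-209 and Mdm4-214.
Trp53 alternative stretch, chr11:69591254-69591305, plus strand: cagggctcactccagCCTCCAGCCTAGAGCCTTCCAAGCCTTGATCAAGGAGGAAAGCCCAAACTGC
Mdm2 exon 8, chr10:117695953-117696049, minus strand: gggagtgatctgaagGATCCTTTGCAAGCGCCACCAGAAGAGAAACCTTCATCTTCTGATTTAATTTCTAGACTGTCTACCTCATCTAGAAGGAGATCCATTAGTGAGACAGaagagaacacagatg
Mdm4 exon 6, chr1:133004654-133004721, minus strand: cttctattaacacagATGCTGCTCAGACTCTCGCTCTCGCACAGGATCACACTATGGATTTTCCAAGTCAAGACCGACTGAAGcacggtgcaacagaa

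Coding transcripts made up at least 98.2% of Trp53 TPM in each line. The alternative stretch is 96 bases long, is retained ahead of the last of 11 exons, and gives p53 a different carboxyl end. Forms with it (Trp53-202 and Trp53-206) had 29.3, 15.9 and 16.8 TPM in lines 66, 67 and 72, or 13.9%, 11% and 10.5% of the gene (11.8% ± 1.85, SD, n = 3). The usual forms (Trp53-201 and Trp53-203) had 178, 126 and 140.1 TPM. The alternative form was therefore the minor one in every line, and it differed more between lines, 1.84-fold, than the gene as a whole. Trp53-201 and Trp53-203 differ by 1 base, so the estimated split between them was not used for these forms. The split does enter the leading share of Trp53-201 and the count of 22 transcripts above. There Trp53-203 passed 10% in line 72 only, at 16.7% of TPM beside 1.58% in line 66 and 3.39% in line 67.

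Mdm2 was spread over more forms. The gene is known to have a promoter upstream of its first exon and a second one, with p53 elements, in its first intron. Transcripts starting in the first exon (chr10:117710552-117710758) had 117, 84.2 and 90.3 TPM, or 25.7%, 25.8% and 22.5% of the gene's TPM and 43.2%, 43.9% and 38.6% of its estimated counts. Those starting in the first intron (Mdm2-206 and Mdm2-207) had 146, 107 and 138 TPM, or 32.2%, 32.9% and 34.4% of TPM but only 9.08%, 9.33% and 9.77% of counts. With Mdm2-209, which starts a little farther downstream, starts in the first intron or exon 2 made up 57.7%, 57.7% and 62.3% of TPM and 49.4%, 48.75% and 54.5% of counts. Mdm2-206 and Mdm2-207 are annotated as processed transcripts without a reading frame, and none of the 9 matched Mdm2 transcripts joins a start in the first intron to a full coding sequence. Reads from such an RNA would be assigned to other forms, so the use of each promoter cannot be read from these shares.

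Mdm2-209, annotated as a target of nonsense-mediated decay, lacks exon 8 of 12, whose 97 bases are no multiple of 3. It had 116, 81.05 and 112 TPM, or 25.5%, 24.8% and 27.97% of the gene's TPM and 40.3%, 39.4% and 44.8% of its counts. Mdm2-201, the leading coding form, had 73.0, 55.25 and 54.0 TPM, and the retained-intron form Mdm2-204 had 75.4, 54.0 and 60.6 TPM. Coding forms together made up 20.1%, 20.6% and 17.3% of Mdm2 TPM and 36.7%, 37.8% and 32.2% of its counts.

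Mdm4 had a similar skipped form. Mdm4-214 lacks exon 6 of 11, whose 68 bases are no multiple of 3, and skipping of this exon is a known switch that lowers MDM4 protein. It had 8.65, 10.2 and 10.8 TPM in lines 66, 67 and 72. That was 22.1%, 23.4% and 22.3% of Mdm4 TPM and 12.6%, 12.7% and 12.8% of its counts, nearly the same in each line. Mdm4-210, the leading coding form, had 19.25, 22.3 and 23.1 TPM.

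Among the death genes, Bbc3 was divided between the coding form Bbc3-201, at 8.23, 7.46 and 8.39 TPM, and the retained-intron form Bbc3-203, at 7.12, 7.84 and 4.72 TPM. The lower level of Bbc3 in line 72 lay in the retained-intron form, whose share of TPM was 46.4%, 49.8% and 35.3%, while coding forms together were highest there, at 8.64 TPM beside 8.23 and 7.90 TPM. Bax-201 led Bax at 270.5, 288 and 249.9 TPM, with Bax-203 at 46.0, 44.9 and 36.0 TPM, and Bax-202 was least in line 67 (13.4 TPM) and greatest in line 72 (64.4 TPM). Pmaip1-201 carried 89.0, 139 and 116 TPM and Pmaip1-202 18.7, 31.03 and 21.9 TPM, so both of these forms were highest in line 67. The remaining form, Pmaip1-203, had 0.43, 0.17 and 0 TPM.

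In the protective group, Sesn1-201, from the downstream start whose promoter window is printed above, had 6.11, 3.86 and 3.455 TPM in lines 66, 67 and 72. Sesn1-202, from the upstream start, had 2.03, 2.07 and 1.84 TPM. The higher level of Sesn1 in line 66 lay in the downstream form, with 660 estimated counts beside 378 and 346, while the upstream form had 357, 332 and 301. Zmat3-203 had 27.4, 28.9 and 31.9 TPM and Zmat3-201 18.8, 20.3 and 15.8 TPM. Sesn2 was listed with 1 transcript.

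**Figure D3:**
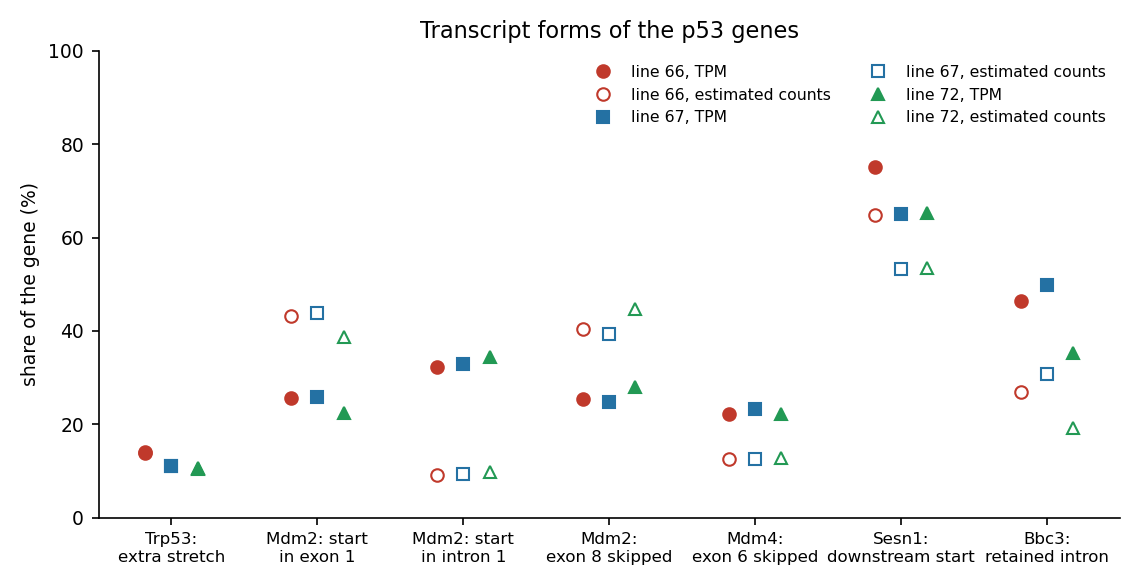
Share of each gene (percent) taken by the named transcript forms in lines 66 (circles), 67 (squares) and 72 (triangles), from TPM (filled) and from estimated counts (open). The Trp53 form with the alternative stretch stays between 10.5% and 14.2% on both measures, whereas the forms of Mdm2 that start in the first intron fall from over 32% of TPM to under 10% of counts.

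Around these 10 genes, 57 further genes of the pathway were read in fixed lists, all of them present in the files. A mean of at least 10 TPM was reached by 43, and 4 of those (9.30%) were over 1.5-fold apart between lines, beside the 9.79% of all genes. They were Hipk2, a kinase that acts on p53, at 11.1, 17.5 and 17.3 TPM in lines 66, 67 and 72; Plk2, a cell cycle kinase, at 75.3, 64.4 and 98.3 TPM; the mTORC1 inhibitor Ddit4, on chromosome 10, at 39.5, 25.2 and 35.8 TPM; and the third sestrin, Sesn3, at 18.1, 14.4 and 22.0 TPM. None was over 2-fold apart. Of the 43 genes 29 were highest in line 72, 9 in line 66 and 5 in line 67, while 45.7% of all genes with that mean were highest in line 72 and 28.1% in line 66.

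The p53 relatives were nearly silent. Trp73 was under 0.1 TPM in each line and Trp63 had 0.44, 0.61 and 1.08 TPM. All 15 upstream regulators and cofactors exceeded a mean of 10 TPM, from Atm, the kinase that senses DNA breaks, at 10.6, 12.9 and 13.1 TPM, up to Cdkn2a at 175, 125 and 160.4 TPM. Cdkn2a encodes both a kinase inhibitor and ARF, a protein that restrains MDM2.

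Of the 7 other targets that act on the cell cycle, Cdkn1a, which encodes the kinase inhibitor p21, was highest at 364, 451.5 and 497 TPM, and Sfn lowest at 1.25, 1.17 and 0.97 TPM. Line 66, with the most Trp53 RNA, had the least Cdkn1a RNA. Of the 6 with a mean of at least 10 TPM, 2 (Btg2 and Plk3) were highest in line 66 and 4 in line 72. Among all genes with that mean the shares were 28.1% and 45.7%. A relation of these targets to Trp53 RNA was not tested. Of the 10 other death targets, 8 exceeded a mean of 10 TPM, led by Phlda3, an inhibitor of AKT, at 200.1, 218 and 234 TPM. The death receptor Fas had 2.70, 1.77 and 4.09 TPM. The membrane protein Perp was lowest by mean, at 1.70, 3.26 and 0.57 TPM, although Fas was lower in line 67. Of the 9 repair and metabolic targets 5 exceeded it. The highest was the nuclease Ercc5 at 47.5, 49.7 and 56.5 TPM, and the lowest of all 9 was the glutaminase Gls2 at 1.14, 1.71 and 1.77 TPM.

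In the BCL2 family, which decides whether BAX opens its pore, 7 of 12 genes exceeded a mean of 10 TPM. The survival gene Bcl2l1, which encodes BCL-XL, was highest at 77.3, 67.1 and 92.5 TPM, and the BH3-only genes Bik, Bmf and Hrk were under 1 TPM in every line. RNA of Bax was above that of Bcl2l1 by 4.99, 6.01 and 4.43 times, above that of the survival gene Mcl1 by 6.61, 7.31 and 6.99 times, and above that of its partner Bak1 by 9.56, 8.91 and 8.61 times. Bcl2 itself was at a mean of 2.98 TPM. The paralog of Ccng1, Ccng2, had 22.9, 21.3 and 27.6 TPM, far below Ccng1.

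**Figure D4:**
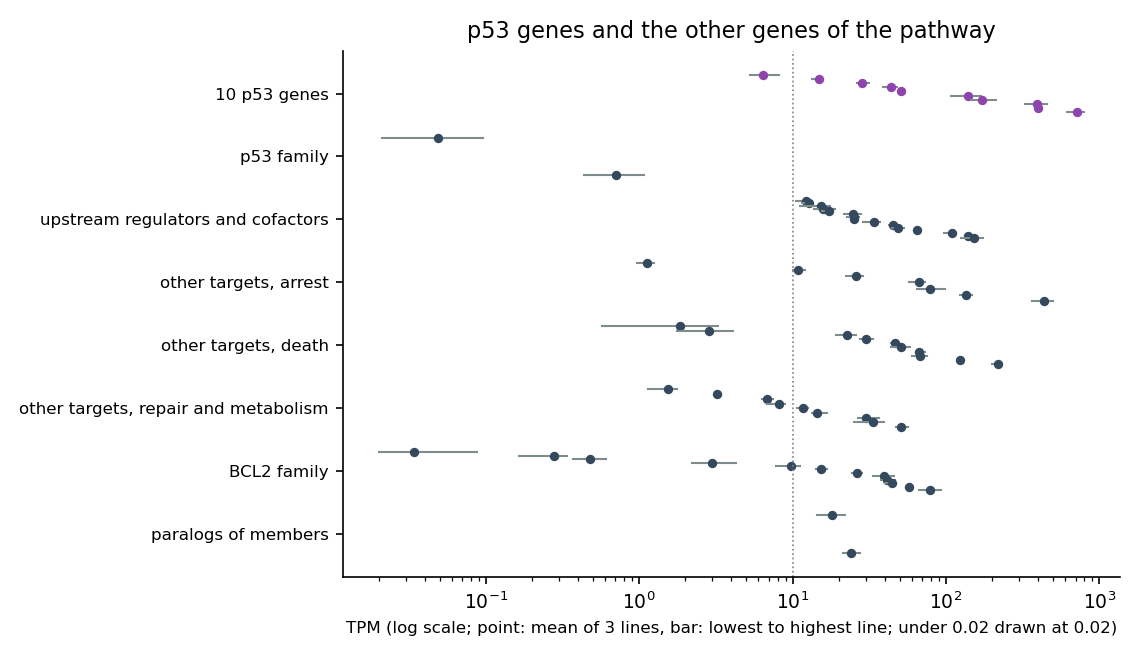
Mean TPM of 3 lines (points, log scale) with the lowest to highest line (bars) for the 10 genes and for 57 further genes of the pathway by list, with a dotted line at 10 TPM. The 10 genes reach 713 TPM at Ccng1, above every gene of the other lists, whereas Trp73 and Hrk lie under 0.1 TPM.

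The labelled cell type was checked against its markers. All 7 myoblast markers exceeded 10 TPM, with summed levels of 2492, 2438 and 2337 TPM in lines 66, 67 and 72. The 4 markers of differentiating muscle summed to 444, 597 and 778.5 TPM and the 4 cycling markers to 415.5, 547 and 525 TPM, so both sums were lowest in line 66, where Trp53 and Mdm2 were highest and Pmaip1 lowest. Their part in those differences was not tested. The 5 fibroblast markers summed to 7.98, 28.7 and 37.4 TPM, nearly all from Col1a2, with Lum and Dpt at 0, and the 3 endothelial, 3 immune and 4 pluripotency markers summed to under 5 TPM each. In such bulk samples, more cells of a kind and more RNA per cell cannot be told apart.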

How the data were processed

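RNA of 3 myoblast lines was sequenced as stranded, poly-A-selected libraries. The authors deposited, for each of 121798 transcripts, an estimated count (reads that fit several transcripts are split between them) and a TPM value, scaled by the authors to 1000000 per library. The submitters' processing notes name bcl2fastq 2.20, fastp 0.20, kallisto 0.46.1 and the build GRCm39. The annotation release used is not given in the sources used here. Estimated counts summed to 73274315, 66972426 and 70272367 in lines 66, 67 and 72. The limit of detection was 3 counts (0.0409, 0.0448 and 0.0427 CPM), which a 0 leaves possible. Intervals and limits cover counting error only.

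Transcripts were matched by identifier to GENCODE M21 (GRCm38), and all coordinates are on that build. The 1112 unmatched transcripts, with 0.493% to 0.535% of counts, were left out. TPM and estimated counts were summed per gene. Detected genes had over 0 TPM somewhere. Comparisons between lines used genes whose mean reached 10 TPM and a range above 1.5-fold. Levels on a log scale were log2(TPM + 1). The ratio of a line was the log2 of its TPM over the mean TPM of the other lines, less the median of all genes. That median was -0.06, -0.02 and 0.06 in lines 66, 67 and 72. At least 98.1% of 31-base words of every gene occurred in no other listed gene, except for Bax (88.9%), which shares sequence with the overlapping gene Gm45808 (0 TPM).

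The 10 genes and all lists were chosen with earlier results of these data known. Genes named besides the 10 were those over 1.5-fold apart, the highest and lowest of each list, those under 1 TPM in every line, and the 3 nearest in level to Trp53 and Mdm2. Fas, Bcl2, Mcl1 and Bak1 were named outside that rule. Alternatives were a pseudocount of 0.1, CPM, protein-coding transcripts alone, a minimum mean of 1 TPM, a threshold of 2-fold, edgeR's TMM scaling, DESeq2's size factors, correction for the own chromosome, and leaving out each line. Ratios between genes from protein-coding transcripts were added after the data were seen. The range and ratio calculations were also run on simulated counts with set fold changes and counting error only. That simulation held no other variation between lines and no error in assigning reads to transcripts, so it covers the arithmetic alone. The scaling ran in edgeR 4.0.16 and DESeq2 1.42.0 under R 4.3.3. All else ran in Python 3.11.15 with pandas 2.3.3, numpy 2.4.6 and scipy 1.17.1, and figures were drawn with matplotlib 3.10.9.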

Additional observations from a re-analysis of the deposited data

How the results depend on the processing

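The median level of the 10 genes, 6.37 on the log2(TPM + 1) scale, was 6.35 with a pseudocount of 0.1, 5.96 with protein-coding transcripts alone and 7.475 on the CPM scale, which is not per length; leaving out each line gave 6.32 to 6.44. The count of genes over 1.5-fold apart, 1 (Pmaip1), was 2 (with Sesn1) at a minimum mean of 1 TPM, 0 at a threshold of 2-fold, and 0 to 1 when a line was left out. It was 1 under edgeR's TMM scaling, DESeq2's size factors, CPM, a pseudocount of 1 and correction for the own chromosome. Of 10 single levels, 3 moved by more than the SD between lines with protein-coding transcripts alone (Mdm2, Mdm4 and Bbc3) and 8 on the CPM scale. Of 30 line ratios, 11 moved by more than counting error under TMM, 11 under DESeq2's size factors and 20 relative to the own chromosome. Those of Bax and Bbc3 in line 72 went from -0.01 to -0.19 and from -0.28 to -0.13 under TMM. The sign changed for 1 under TMM, 1 under DESeq2's size factors and 7 relative to the own chromosome. Of 10 leading transcript shares, 6 moved when read from estimated counts, that of Mdm2-206 to 8.55%. The split of reads between overlapping transcripts is an estimate, and its error is not known here. No paired analysis was possible because there is 1 condition, so no groups share replicate numbers.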

Other observations

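Cdkn2a is read from separate starts that give its different proteins. Cdkn2a-202, from the farther upstream start, had 71.3, 69.7 and 70.4 TPM in lines 66, 67 and 72. Cdkn2a-201, from the downstream start, had 104, 55.35 and 90.05 TPM. The lower level of the gene in line 67 thus lay in Cdkn2a-201. These transcripts were looked at after the gene's level was seen.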
